A study of Mus musculus with 12 samples.

Results

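Tumour necrosis factor (TNF) superfamily ligands are a family of secreted or membrane-bound signalling proteins, and 9 of their genes, Tnf, Tnfsf9, Lta, Ltb, Tnfsf8, Tnfsf10, Tnfsf13b, Tnfsf14 and Tnfsf15, are described here in mouse macrophages responding to lipopolysaccharide (LPS). The genes were chosen by name, each through the probe set annotated to that symbol alone. All 9 had exactly 1 such probe set, and they make up 9 of the 19938 gene symbols on the arrays. The cells were macrophages differentiated from the bone marrow of C3H/HeN mice and grown with IL-3, IL-6, stem cell factor and L-cell conditioned medium. They were harvested unstimulated (0 min) or after 45 min or 270 min with E. coli LPS at 100 ng/ml. Every culture, the unstimulated ones included, received 200 µM of the uridine analogue 4-thiouridine for its last 35 min. RNA that had taken up the analogue was biotinylated and captured on streptavidin from each culture's total RNA, which gives a nascent and a total RNA sample per culture. Amplification started from 100 ng of nascent RNA and 200 ng of total RNA. The 6 groups (nascent and total RNA at each of the 3 times) hold 2 Affymetrix Mouse Gene ST 1.0 arrays each, from 2 independent experiments, and n = 2 for every group value below.

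TNF superfamily ligands assemble as trimers, most are made as type II membrane proteins, and several can be cut from the cell surface into a soluble form. They signal through the TNF receptor superfamily. Many of its members recruit TRAF adaptors, which lead to NF-κB and MAP kinase activation, and some carry a death domain that can start apoptosis. Macrophages are a major source of TNF after Toll-like receptor 4 senses LPS.

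Levels are log2 array intensities, differences are log2 differences ± SE, and a difference is called when its limma p, adjusted by Benjamini-Hochberg over all 19938 symbols, is under 0.05. As a background level, the 95th percentile of 1027 olfactory receptor genes was taken on each array, and it lay between 6.18 and 6.8. Where both arrays of the dimmer group were under that level, the fold is given as a lower bound against it. Levels were not compared between probe sets, and the arrays report no amounts per cell, so fewer cells of a type and less RNA per cell cannot be told apart.

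The array pairs of a group correlated at 0.981 to 0.989 across genes, and median intensities lay between 82.94 and 105.33. All 10 macrophage markers were above background on all 12 arrays, and no B cell marker (0 of 4) or NK cell marker (0 of 4) was above it on any. Of 6 T cell markers Cd3e was above background on all 12 arrays, Cd2 on 5 and Cd5 on 3, and Cd3d, Cd3g and Cd247 were on none. The summed T cell marker intensity lay between 338 and 468 on every array. Of 4 dendritic cell markers Zbtb46 was above background on 11 arrays and Siglech on 6, and Flt3 and Xcr1 were on none. Of 6 mast cell and basophil markers 2, Kit and Gata2, were above background on all 12 arrays, and in total RNA all 6 were higher in experiment 2 than in experiment 1 at each time. Cpa3 lay at 6.48 to 7.32 in experiment 1 and at 8.41 to 8.92 in experiment 2, and Mcpt8 at 6.76 to 7.12 and at 9.19 to 9.59. Fcer1a lay at 5.07 to 5.75 and at 7.1 to 7.85, and Ms4a2 at 5.28 to 6.01 and at 6.3 to 6.79. The summed intensity of that list in total RNA ranged from 462 to 1492 at 0 min, 536 to 1848 at 45 min and 727 to 1617 at 270 min, and its part in the differences between experiments was not tested. The summed intensity of the 4 stromal markers was 385 to 412 in total RNA at 0 min, 383 to 419 at 45 min and 1052 to 1188 at 270 min, and in nascent RNA 390 to 460, 472 to 585 and 1145 to 1187. Within that list Pdgfrb was at 9.44 to 9.6 on the 4 arrays at 270 min and at 5.7 to 6.4 on the other 8, Col1a1 lay between 7.2 and 7.82 on every array, and Cdh5 was under background on all 12.

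**Figure D1:**
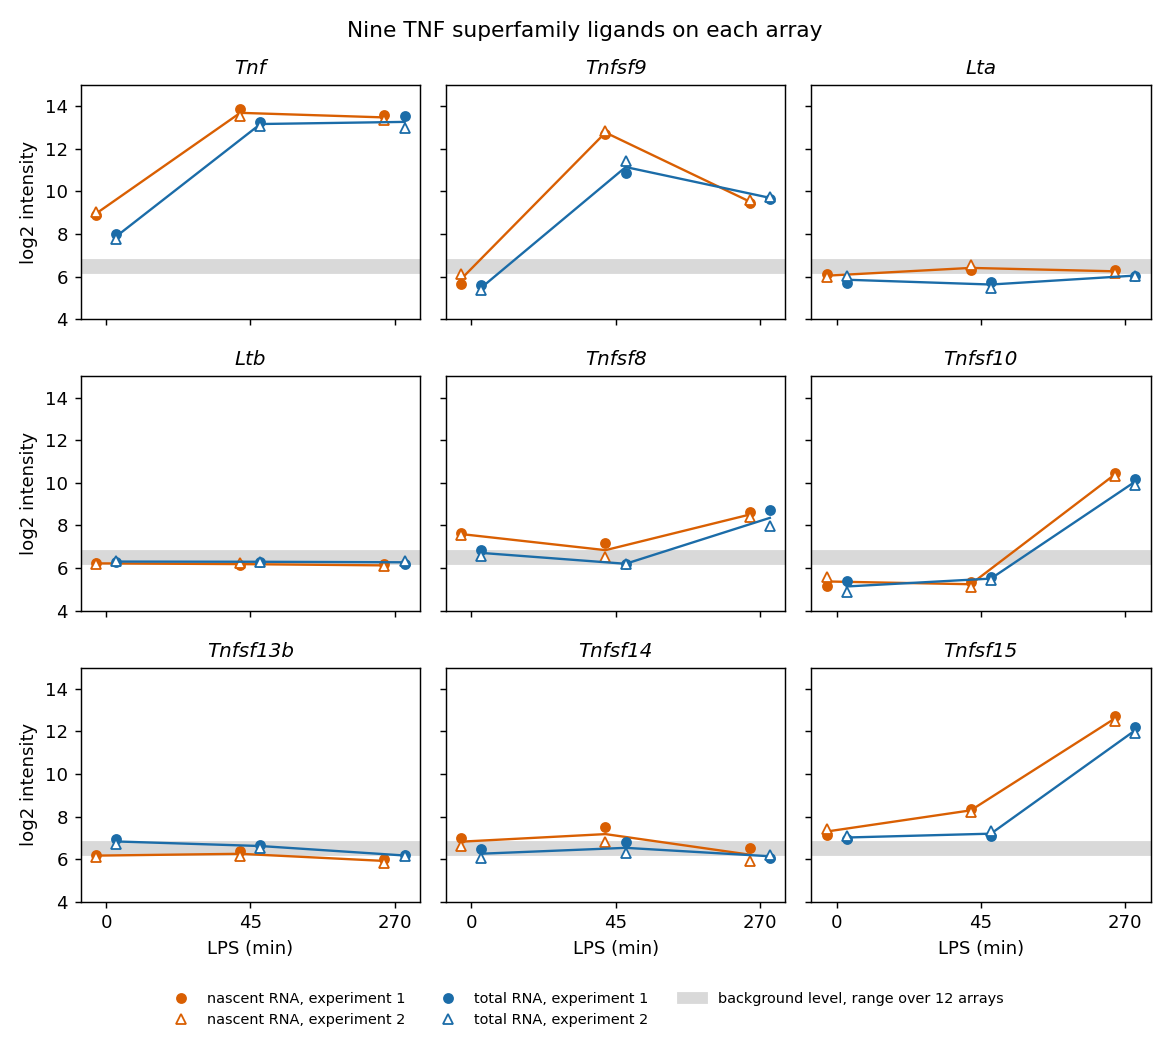
Log2 array intensity of the 9 ligand genes (vertical axis) by time with LPS (horizontal axis, times evenly spaced and not to scale) in nascent and total RNA, with 1 point per array and the background level marked. Tnf and Tnfsf9 are high at 45 min, Tnfsf10 and Tnfsf15 are high at 270 min, and Lta and Ltb stay near background at all 3 times.

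Tnf and Tnfsf9 were already high 45 min after LPS. Tnf encodes TNF itself, the ligand of the receptors Tnfrsf1a and Tnfrsf1b. In nascent RNA Tnf read 8.88 and 9.04 in the unstimulated cultures of experiments 1 and 2, 13.85 and 13.53 at 45 min, and 13.59 and 13.36 at 270 min. The corresponding total RNA levels were 8.0 and 7.78, then 13.24 and 13.09, then 13.54 and 12.99. Every stimulated array was above every unstimulated one, and the 45 min and 270 min arrays overlapped in both fractions. The nascent increase at 45 min was 4.73 ± 0.20 (26.6-fold, adjusted p = 6.96e-09) and the total increase 5.27 ± 0.20 (38.7-fold, adjusted p = 7.59e-09). At 270 min the increases over unstimulated cells were 4.52 ± 0.20 in nascent RNA (adjusted p = 4.11e-09) and 5.37 ± 0.20 in total RNA (adjusted p = 9.34e-10). The unstimulated arrays are shared by the 45 min and 270 min comparisons. Between 45 and 270 min Tnf did not pass the test, with a nascent difference of -0.22 (95% interval -0.65 to 0.22) and a total difference of 0.10 (95% interval -0.34 to 0.53).

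Tnfsf9, which encodes 4-1BBL, a co-stimulatory ligand of the receptor Tnfrsf9, also rose by 45 min and then fell back. Its 4 unstimulated arrays were under background, at 5.66 and 6.13 in nascent RNA and 5.59 and 5.39 in total RNA. Nascent levels were 12.69 and 12.84 at 45 min and 9.44 and 9.61 at 270 min, and total levels were 10.87 and 11.42, then 9.66 and 9.74. No 2 of the 3 times overlapped in either fraction. At 45 min nascent Tnfsf9 was at least 88.0-fold higher than in unstimulated cells (6.87 ± 0.23, adjusted p = 1.44e-09) and total Tnfsf9 at least 29.2-fold (5.66 ± 0.23, adjusted p = 8.01e-09). From 45 to 270 min nascent Tnfsf9 fell by 3.24 ± 0.23 on the log2 scale (adjusted p = 4.2e-07) and total Tnfsf9 by 1.45 ± 0.23 (adjusted p = 0.00058). It was still at least 9.33-fold above unstimulated cells in nascent RNA at 270 min (adjusted p = 9.93e-08) and at least 10.7-fold in total RNA (adjusted p = 3.26e-08).

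Tnf lies on chromosome 17 between Ltb and Lta, in the gene order Lst1, Ltb, Tnf, Lta, Nfkbil1 of RefSeq (GRCm38.p6), and of these 3 ligand genes Tnf alone was called after LPS, a difference between genes that was not tested. Lta encodes lymphotoxin alpha, which binds the TNF receptors as a trimer of its own, and Ltb encodes lymphotoxin beta, which anchors lymphotoxin alpha at the cell membrane for the receptor Ltbr. Lta was under background on all 12 arrays. Its nascent levels were 6.11 and 5.98 at 0 min, 6.29 and 6.53 at 45 min, and 6.31 and 6.19 at 270 min, and its total levels were 5.69 and 6.02, 5.77 and 5.49, and 6.05 and 6.05. Ltb was above background on 1 nascent and 1 total array at 0 min, on both total arrays at 45 min and on no other array, with all 12 levels between 6.07 and 6.34. None of the changes with LPS of Lta or Ltb passed the test. Ltb differed from unstimulated cells by -0.04 ± 0.14 at 45 min and -0.10 at 270 min in nascent RNA, and at 270 min in total RNA by -0.03, with a 95% interval of -0.35 to 0.28. Nascent Lta differed by 0.37 ± 0.17 (adjusted p = 0.216) at 45 min and 0.21 at 270 min, values that come from levels under background.

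The 250 bases upstream of each of the 3 neighbours' annotated starts are printed to set the LPS-responsive Tnf beside Ltb and Lta. They are RefSeq reference sequence (GRCm38.p6), each 5′ to 3′ on its gene's strand, at chr17:35202008-35202257 (minus strand) for Tnf, chr17:35194257-35194506 (plus) for Ltb and chr17:35205352-35205601 (minus) for Lta. Capitals mark matches, on either strand, to any of 12 patterns.
Tnf: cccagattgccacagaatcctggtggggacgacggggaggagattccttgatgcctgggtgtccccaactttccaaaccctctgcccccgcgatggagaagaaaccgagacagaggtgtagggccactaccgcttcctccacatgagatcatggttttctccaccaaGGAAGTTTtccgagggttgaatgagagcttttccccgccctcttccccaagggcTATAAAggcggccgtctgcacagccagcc
Ltb: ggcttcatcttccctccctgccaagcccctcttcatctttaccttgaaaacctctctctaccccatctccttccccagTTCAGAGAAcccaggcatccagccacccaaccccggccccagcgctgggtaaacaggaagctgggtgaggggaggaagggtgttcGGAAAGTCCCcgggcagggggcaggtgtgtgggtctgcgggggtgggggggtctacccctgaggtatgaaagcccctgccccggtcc
Lta: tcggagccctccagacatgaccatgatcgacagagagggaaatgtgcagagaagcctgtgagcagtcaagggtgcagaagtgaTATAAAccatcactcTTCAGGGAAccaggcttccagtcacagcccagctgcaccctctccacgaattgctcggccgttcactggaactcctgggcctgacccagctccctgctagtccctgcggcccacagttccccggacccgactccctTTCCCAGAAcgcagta

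The patterns searched, with the share of 32851 annotated promoter windows of the same length that hold each, were the NF-κB consensus by name (7.25%), GGGNNNTCC, a shorter NF-κB pattern (15.2%), the interferon-stimulated response element core, GAAA repeated after any 2 bases (2.98%), and its narrower form with T as the last of those bases (0.682%), TTCNNNGAA, the STAT-binding GAS pattern (7.02%), TGANTCA, the AP-1 pattern (6.75%), TGACGTCA (1.55%) and its core TGACG (17.8%), from cyclic AMP response elements, GCGNGGGCG for EGR factors (4.7%), TTGCNNAA for C/EBP factors (9.56%), GGAAGTTT (1.12%), and the TATA box letters TATAAA (12.4%). They are not independent of one another: any match to the narrower interferon pattern also matches the wider one, and any match to TGACGTCA contains TGACG. The Tnf window held TATAAA 29 to 24 bases before the start and GGAAGTTT 83 to 76 bases before it. Ltb held the NF-κB consensus 87 to 78 bases before its start and the GAS pattern 172 to 164 bases before it. The Lta window held TATAAA 167 to 162 bases before its start and the GAS pattern at 152 to 144 and at 16 to 8 bases. A match describes letters in this window and is neither a binding site nor a cause of the levels above.

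Tnfsf15 and Tnfsf10 rose late, between 45 and 270 min. Tnfsf15 encodes TL1A, the ligand of the receptor Tnfrsf25, and Tnfsf10 encodes TRAIL, a ligand that can trigger apoptosis through death receptors such as Tnfrsf10b. Nascent Tnfsf15 read 7.16 and 7.44 unstimulated, 8.35 and 8.24 at 45 min, and 12.72 and 12.5 at 270 min. Total Tnfsf15 read 6.93 and 7.11, then 7.09 and 7.31, then 12.19 and 11.91. All 12 arrays were above background, and both 270 min arrays stood above all earlier ones in each fraction. By 270 min Tnfsf15 was 39.6-fold higher in nascent RNA (5.31 ± 0.21, adjusted p = 1.27e-09) and 32.6-fold higher in total RNA (5.03 ± 0.21, adjusted p = 1.92e-09). A smaller nascent increase was called at 45 min, of 1.00 ± 0.21 (adjusted p = 0.00842), with 1.19 in experiment 1 and 0.80 in experiment 2. Without either of the nascent 45 min arrays that call was lost, at 0.94 (adjusted p = 0.0681) without experiment 1 and 1.05 (adjusted p = 0.0557) without experiment 2. In total RNA the 45 min difference was 0.18 ± 0.21 and did not pass the test.

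Tnfsf10 was under background on all 8 arrays at 0 and 45 min. Its nascent levels were 5.16 and 5.57 at 0 min, 5.35 and 5.12 at 45 min, and 10.48 and 10.3 at 270 min. In total RNA they were 5.39 and 4.87, then 5.58 and 5.42, then 10.19 and 9.91. The 4 arrays at 270 min stood clear of the other 8. At 270 min Tnfsf10 was at least 17.0-fold higher than unstimulated in nascent RNA (5.02 ± 0.22, adjusted p = 2.55e-09) and at least 13.6-fold higher in total RNA (4.92 ± 0.22, adjusted p = 3.83e-09). From 45 to 270 min it rose at least 13.6-fold in nascent RNA (fitted difference 5.15 ± 0.22, adjusted p = 3.76e-09) and at least 14.6-fold in total RNA (fitted difference 4.55 ± 0.22, adjusted p = 1.67e-08).

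The windows of both late genes are shown for comparison with Tnf, at chr3:27316827-27317076 (plus strand) for Tnfsf10 and chr4:63745060-63745309 (minus strand) for Tnfsf15, with the same 12 patterns in capitals.
Tnfsf10: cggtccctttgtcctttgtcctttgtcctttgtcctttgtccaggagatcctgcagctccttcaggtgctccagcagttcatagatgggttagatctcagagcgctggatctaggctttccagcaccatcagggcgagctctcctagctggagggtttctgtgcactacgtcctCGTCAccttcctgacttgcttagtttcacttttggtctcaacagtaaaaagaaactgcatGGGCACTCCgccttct
Tnfsf15: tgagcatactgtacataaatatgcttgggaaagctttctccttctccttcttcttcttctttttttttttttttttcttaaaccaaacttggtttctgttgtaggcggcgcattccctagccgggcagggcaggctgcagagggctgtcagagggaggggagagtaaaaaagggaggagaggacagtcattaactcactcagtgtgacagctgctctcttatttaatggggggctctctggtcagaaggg

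In the Tnfsf10 window TGACG matched on the opposite strand, 76 to 72 bases before the start, and GGGNNNTCC matched 16 to 8 bases before it. No pattern matched in the Tnfsf15 window or in that of Tnfsf8. Of the other members, Tnfsf14 held TGANTCA 160 to 154 bases before its start. Tnfsf13b has 2 annotated starts, and the window of one of them held TGANTCA at 127 to 121 bases and both interferon-response patterns at 16 to 7 bases, where they overlap fully. No window of Tnfsf9 was searched.

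Tnfsf8 encodes CD30 ligand, whose receptor is Tnfrsf8, and lies beside Tnfsf15 on chromosome 4. Both neighbours were called higher at 270 min in both fractions. Nascent Tnfsf8 read 7.65 and 7.53 at 0 min, 7.15 and 6.52 at 45 min, and 8.62 and 8.39 at 270 min. Total Tnfsf8 read 6.83 and 6.58, then 6.19 and 6.2, then 8.73 and 7.97. In both fractions the 45 min arrays were the lowest and the 270 min arrays the highest, with no overlap. The drop at 45 min was not called, at -0.75 ± 0.26 in nascent RNA (adjusted p = 0.0944) and -0.51 in total RNA (adjusted p = 1.0). With the experiment as a replicate block the nascent drop was called (adjusted p = 0.0219). From 45 to 270 min Tnfsf8 rose by 1.67 ± 0.26 in nascent RNA (adjusted p = 0.000344) and 2.15 ± 0.26 in total RNA (adjusted p = 5.34e-05). Against unstimulated cells the 270 min increase was 1.64 ± 0.26 in total RNA (3.12-fold, adjusted p = 0.000439). In nascent RNA it was 0.92 ± 0.26 (1.89-fold, adjusted p = 0.0198), and that call was lost without any 1 of its 4 arrays (0.80 to 1.03, adjusted p from 0.0506 to 0.125).

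Tnfsf14 and Tnfsf13b were low throughout, and the calls on them were few and rested on single arrays. Tnfsf14 encodes LIGHT, a ligand of Tnfrsf14 and Ltbr, and its gene lies near Tnfsf9 on chromosome 17, separated from it by Cd70. Its nascent levels were 7.01 and 6.64 at 0 min, 7.53 and 6.83 at 45 min, and 6.51 and 5.92 at 270 min. Its total levels were 6.48 and 6.04, then 6.8 and 6.27, then 6.07 and 6.21, the last pair under background as were both nascent arrays at 270 min. Nascent Tnfsf14 fell from 45 to 270 min by 0.97 ± 0.27 on the log2 scale (at least 1.39-fold lower, adjusted p = 0.0248). The call was lost without experiment 1 at 45 min (-0.62, adjusted p = 0.289) or without experiment 2 at 270 min (-0.68, adjusted p = 0.277). Against unstimulated cells its nascent difference was 0.35 ± 0.27 at 45 min and -0.62 ± 0.27 at 270 min (adjusted p = 0.124, and 0.0268 with the replicate block). In total RNA it did not pass the test at 45 min (0.27) or at 270 min (-0.12).

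Tnfsf13b encodes BAFF, a survival factor for B cells whose receptors are Tnfrsf13c, Tnfrsf13b and Tnfrsf17. In nascent RNA it was under background on all 6 arrays (5.83 to 6.37), and in total RNA above it at 0 min (6.96 and 6.71) and 45 min (6.69 and 6.55) and under it at 270 min (6.19 and 6.16). Total Tnfsf13b fell by 0.66 ± 0.16 on the log2 scale from 0 to 270 min (at least 1.28-fold lower, adjusted p = 0.01), by 0.77 in experiment 1 and 0.55 in experiment 2. Without experiment 1 at 0 min the call was lost (-0.54, adjusted p = 0.123), as it was without experiment 2 at 270 min (-0.65, adjusted p = 0.0516). The total decrease from 45 to 270 min, -0.44 ± 0.16, was not called (adjusted p = 0.0769), and was with the replicate block (adjusted p = 0.0486). In nascent RNA the differences from unstimulated cells were 0.08 at 45 min and -0.25 at 270 min, neither called.

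**Figure D2:**
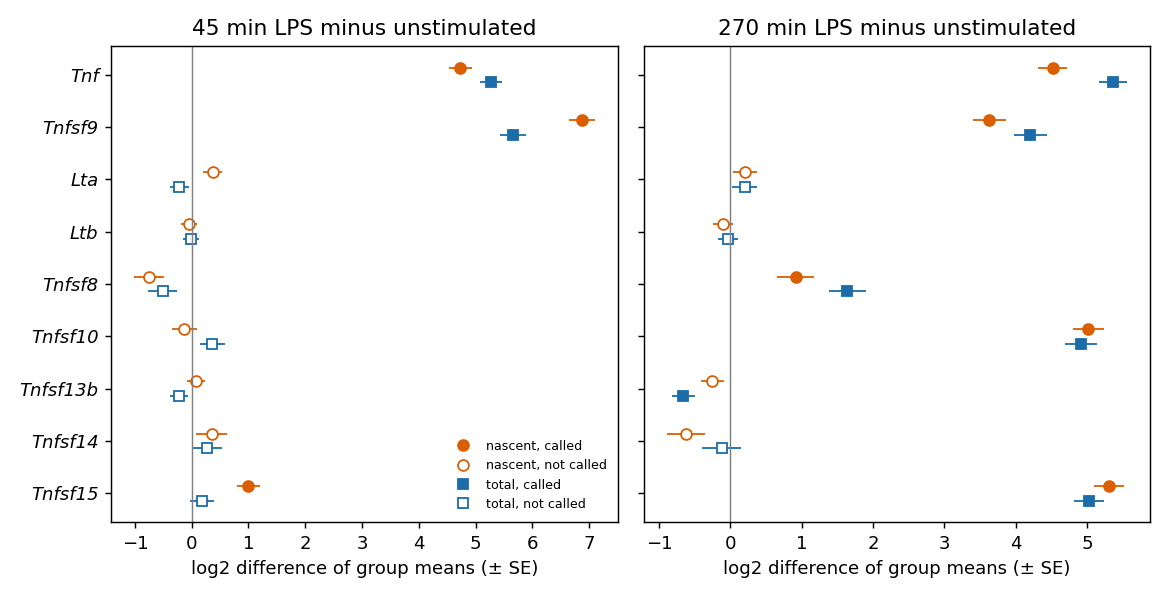
Log2 change of each ligand gene against unstimulated cells at 45 and 270 min in nascent and total RNA, with the standard error of the fit. Tnf and Tnfsf9 stand apart from 0 at 45 min, Tnfsf10 and Tnfsf15 join them at 270 min, and Lta and Ltb lie near 0. Unstimulated Tnfsf9 and Tnfsf10 were under background, so their plotted changes are fitted values, and the lower bounds are those in the text.

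Across the 9 genes, 3 were called higher in nascent RNA at 45 min (Tnf, Tnfsf9 and Tnfsf15), where 3.05% of all symbols were called higher and 5.88% lower. In total RNA at 45 min the calls were 2 (Tnf and Tnfsf9), against 0.662% of all symbols higher and 0.0201% lower. At 270 min Tnf, Tnfsf9, Tnfsf8, Tnfsf10 and Tnfsf15 were called higher in both fractions, that is 5 of 9, against 8.87% of all symbols in nascent and 7.02% in total RNA. Tnfsf13b was the 1 member called lower, in total RNA, where 12% of all symbols were, against 14.2% in nascent RNA. Between 45 and 270 min 3 members were called higher in each fraction (Tnfsf8, Tnfsf10 and Tnfsf15), against 6.74% of all symbols in nascent and 6.64% in total RNA. Called lower over that interval were Tnfsf9 and Tnfsf14 in nascent RNA and Tnfsf9 in total RNA, against 10% and 11.5% of all symbols. The median change of the 9 genes from unstimulated cells was 0.35 in nascent and 0.18 in total RNA at 45 min, and 0.92 and 1.64 at 270 min, where the medians over all symbols were 0.11, -0.01, 0.12 and 0.07. The genes were named with earlier results of these data known, so these counts describe them and do not set them apart.

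Nascent RNA was compared with the total RNA of the same culture, which shows where a ligand's recently made RNA was high relative to its whole pool on the arrays' scale. At 0 min Tnf was higher in nascent than in total RNA by 1.07 ± 0.16 (adjusted p = 7.59e-05), with 0.88 in experiment 1 and 1.26 in experiment 2, and Tnfsf8 by 0.88 ± 0.22 (adjusted p = 0.00783). Tnfsf13b was lower in nascent RNA by 0.67 (-0.67 ± 0.19, adjusted p = 0.0159), a call lost without either culture (adjusted p = 0.218 and 0.0827). At this time 7.58% of all symbols were called higher in nascent RNA and 8.42% lower. The 6 other members were not called.

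At 45 min 6 of the 9 ligands were called higher in nascent RNA, against 11.2% of all symbols, where 14.2% were called lower. Tnfsf9 had the largest excess, 1.62 ± 0.22 (3.07-fold, adjusted p = 1.37e-05), with 1.82 in experiment 1 and 1.41 in experiment 2. Tnfsf15 followed at 1.10 ± 0.20 (adjusted p = 0.000393), a call lost without experiment 1 (0.93, adjusted p = 0.0538). The others were Lta at 0.78 ± 0.20 (adjusted p = 0.00556), whose arrays were all under background, Tnfsf14 at 0.65 ± 0.20 (adjusted p = 0.024), Tnfsf8 at 0.64 ± 0.22 (adjusted p = 0.0391) and Tnf at 0.53 ± 0.16 (adjusted p = 0.0183). The background level itself was 6.481 and 6.757 on the nascent arrays at 45 min and 6.189 and 6.182 on the total arrays. Tnfsf14 and Tnfsf8 lay near it, with nascent Tnfsf8 in experiment 2 under it at 6.52. The part of this gap in the calls on Lta, Tnfsf14 and Tnfsf8 was not tested. Without experiment 1 only the calls of Tnfsf9 and Lta remained, and without experiment 2 those of Tnfsf9 and Tnfsf15. The calls over all symbols dropped as well, from 2226 higher and 2834 lower to 745 and 1551 without experiment 1 and to 857 and 1343 without experiment 2. Without the pairing by culture, those of Tnfsf9, Lta and Tnfsf15 remained. By 270 min no ligand was called (0 of 9, with 1 at an unadjusted p under 0.05, by limma), against 6.24% of all symbols higher and 9.03% lower. The differences were 0.21 for Tnf, -0.17 for Tnfsf9, 0.34 for Tnfsf10 and 0.56 ± 0.20 for Tnfsf15 (adjusted p = 0.077). With quantile scaling inside each fraction Tnfsf15 was called (0.68, adjusted p = 0.0233).

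**Figure D3:**
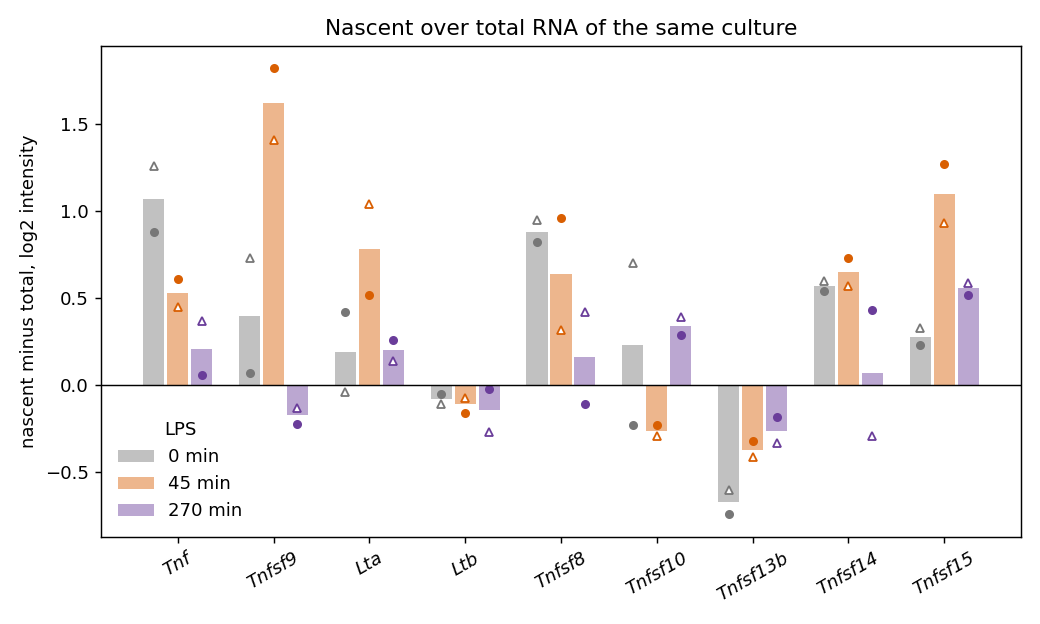
Nascent minus total log2 level of each ligand gene in the same culture at 0, 45 and 270 min (bars are means, circles experiment 1, triangles experiment 2). Tnfsf9 stands highest at 45 min and near 0 at 270 min, and the mean of Tnf is 1.07 at 0 min and 0.21 at 270 min, a difference between times that was not called.

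Whether LPS changed nascent and total RNA by different amounts was tested directly, as the nascent minus the total change. No ligand passed at 45 min (0 of 9, with 4 at an unadjusted p under 0.05, by limma), where 1.04% of all symbols were called in either direction. At 270 min none passed either (0 of 9, with 2 at an unadjusted p under 0.05, by limma), against 0.843% of all symbols. Tnfsf9 came nearest at 45 min, with a fitted difference of 1.21 ± 0.31 (95% interval 0.57 to 1.86, adjusted p = 0.0635). Both of its increases start from levels under background, 5.89 in nascent and 5.49 in total RNA, so for Tnfsf9 this difference takes in a gap between background readings. Tnf had the opposite sign, -0.54 ± 0.22 (adjusted p = 0.316). At 270 min the difference for Tnf was -0.85 ± 0.22 (95% interval -1.32 to -0.39, adjusted p = 0.093). Without experiment 1 at 0 min the calls changed: Tnfsf9 (0.88, adjusted p = 0.041) and Tnf (-0.73, adjusted p = 0.00577) passed at 45 min, and Tnf (-1.04, adjusted p = 1.86e-05) and Tnfsf9 (-0.91, adjusted p = 0.0454) at 270 min. Leaving out that culture also moved the calls over all symbols, from 95 higher and 113 lower to 380 and 1350 at 45 min, and from 24 and 144 to 283 and 836 at 270 min. Without experiment 2 at 0 min Tnfsf9 passed at 45 min (1.55, adjusted p = 9.33e-05), where 202 symbols were called higher.

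Among the receptors of the family, calls in both directions were made at 270 min. All 28 receptor genes listed were measured, 13 above background on all 12 arrays and 7 on none. In nascent RNA 2 were called higher at 45 min (against 3.05% of all symbols), and 4 higher (against 8.87%) and 5 lower (against 14.2%) at 270 min. In total RNA 1 was called higher at 45 min (against 0.662% of all symbols), and 3 higher (against 7.02%) and 4 lower (against 12%) at 270 min. The median change of the list was 0.17 at both times in nascent RNA, beside 0.11 and 0.12 over all symbols, and -0.01 and 0.11 in total RNA, beside -0.01 and 0.07. Cd40, a co-stimulatory receptor, rose by 3.57 ± 0.22 at 45 min and 5.40 ± 0.22 at 270 min in nascent RNA (adjusted p = 3.8e-07 and 1.8e-09), and by 2.33 and 5.83 in total RNA. Fas, a death receptor, rose by 2.06 at 45 min and 2.23 at 270 min in nascent RNA and by 1.80 at 270 min in total RNA, its total difference at 45 min being 0.66 (adjusted p = 0.927). Nascent RNA of Tnfrsf26 fell by 4.08 ± 0.26 at 270 min and that of Tnfrsf21, a death receptor, by 2.80 ± 0.22 (adjusted p = 8.79e-08 and 7.04e-07), and in total RNA they fell by 2.12 and 2.07. The other nascent decreases at 270 min were those of the decoy receptor Tnfrsf23, at least 2.0-fold lower (-1.66), of Tnfrsf12a, the receptor of TWEAK (-1.12), and of the decoy receptor Tnfrsf22, at least 1.5-fold lower (-0.94). Tnfrsf22 (-1.09) and Tnfrsf23 (-0.92) were called lower in total RNA too. Of these, the call on nascent Tnfrsf12a was lost without experiment 2 at 0 min (adjusted p = 0.0641), that on nascent Tnfrsf22 without experiment 1 at 270 min (adjusted p = 0.0514), and that on total Tnfrsf23 without experiment 1 at 0 min or experiment 2 at 270 min (adjusted p up to 0.0625).

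The receptors named above beside their ligands form a chosen list, without the decoy receptors Tnfrsf22 and Tnfrsf23. On that list Tnfrsf14 and Tnfrsf8 were called higher in nascent RNA at 270 min, against 8.87% of all symbols. In total RNA at 270 min Tnfrsf1b was called higher, against 7.02%. No receptor on that list was called at 45 min, and none on it was called lower. Tnfrsf1b, a TNF receptor, rose by 0.71 ± 0.17 in total RNA at 270 min (adjusted p = 0.00872), a call lost without experiment 2 at 0 min or experiment 1 at 270 min (0.55 to 0.69, adjusted p up to 0.0747), and Tnfrsf1a differed by 0.66 ± 0.25 there (adjusted p = 0.0871). Tnfrsf14, the receptor of LIGHT, rose by 2.09 ± 0.45 in nascent RNA at 270 min (adjusted p = 0.00375). In total RNA Tnfrsf14 was at 9.13 in experiment 1 and 7.92 in experiment 2 unstimulated and at 10.42 and 9.24 at 270 min, a difference of 1.31 ± 0.45 (adjusted p = 0.0601). Nascent Tnfrsf8, the CD30 receptor, rose by 0.59 ± 0.16 at 270 min (1.5-fold against the background level at 0 min, adjusted p = 0.0145). Its levels lay near background, at 6.99 and 6.79 at 270 min, where only the experiment 1 array was above it. The background level itself was 6.414 and 6.194 on the nascent arrays at 0 min and 6.623 and 6.798 on those at 270 min. The part of this gap in the call on Tnfrsf8 was not tested. The call was lost without experiment 2 at 0 min or experiment 1 at 270 min (0.48 to 0.50). Tnfrsf9, the receptor of 4-1BBL, stayed between 6.32 and 6.75 on all 12 arrays and was not called, with a nascent difference of 0.27 ± 0.17 at 45 min. Ltbr, Tnfrsf13b and Tnfrsf13c were above background on all 12 arrays and were not called at either time. Tnfrsf17 and Tnfrsf25 were under background on all 12 arrays and Tnfrsf10b was above it on 1.

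**Figure D4:**
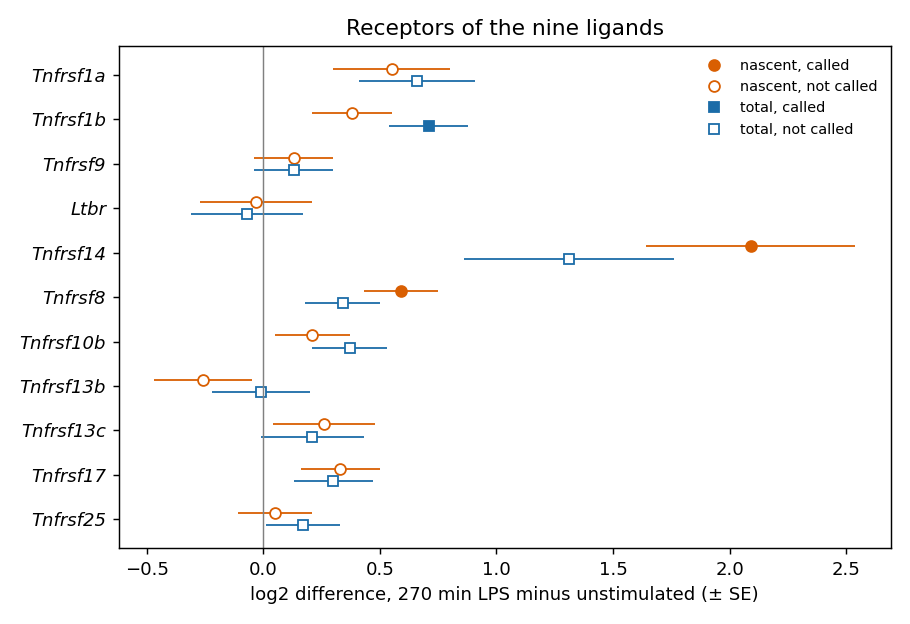
Log2 change against unstimulated cells at 270 min in nascent and total RNA for a chosen list of receptors of the 9 ligands, with the standard error of the fit. The list leaves out the decoy receptors Tnfrsf22 and Tnfrsf23. Filled symbols mark called changes. Tnfrsf14 has the largest increase, 2.09 in nascent and 1.31 in total RNA, the latter not called.

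Among the other ligands of the family, 7 of 9 listed genes were measured, and 5 of these were under background on all 12 arrays. Tnfsf4, which encodes OX40 ligand, was called higher at 270 min in nascent RNA (at least 3.64-fold, 3.55 ± 0.20, adjusted p = 3.3e-08) and in total RNA (at least 5.11-fold, 4.30 ± 0.20, adjusted p = 7.05e-09). Its nascent call at 45 min, 0.74 ± 0.20 (adjusted p = 0.0355), lay between levels under background and was lost with quantile scaling and without experiment 2 at 0 or 45 min (0.47 to 0.61, adjusted p up to 0.37).

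Of 9 measured genes that act in shedding and intramembrane cleavage of TNF, 1 was called higher in nascent RNA at 45 min (against 3.05% of all symbols) and 2 at 270 min (against 8.87%). In total RNA 3 were called higher (against 7.02% of all symbols) and 2 lower (against 12%) at 270 min. Rhbdf2, which encodes the iRhom partner needed for the TNF-shedding protease Adam17, rose by 0.93 in nascent RNA at 45 min, a call lost without experiment 1 at 0 min or either array at 45 min (adjusted p up to 0.0795), and by 1.11 in nascent and 1.56 in total RNA at 270 min. Sppl2a, which encodes an intramembrane protease that cuts the TNF remnant, rose by 1.95 in nascent and 0.98 in total RNA at 270 min, and Rhbdf1, the other iRhom gene, by 0.91 in total RNA. Sppl2b fell by 0.92 and Adam10 by 0.64 in total RNA at 270 min, and the call on Adam10 was lost without any 1 of its 4 arrays (adjusted p up to 0.121).

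In receptor-proximal signalling, 23 of 26 listed genes were measured, 20 of them above background on all 12 arrays. In nascent RNA 5 were called higher (against 3.05% of all symbols) and 1 lower (against 5.88%) at 45 min, and 13 higher (against 8.87%) and 3 lower (against 14.2%) at 270 min. In total RNA 4 were called higher at 45 min (against 0.662% of all symbols), and 12 higher (against 7.02%) and 1 lower (against 12%) at 270 min. The list's median nascent change was 0.02 at 45 min and 0.81 at 270 min, beside 0.11 and 0.12 over all symbols. Traf1, an adaptor of TNF receptors, rose by 3.42 at 45 min and 4.25 at 270 min in nascent RNA and by 2.03 and 4.02 in total RNA. Tnfaip3, which encodes the ubiquitin-editing inhibitor A20, rose by 2.43 and 1.98 in nascent RNA and by 3.70 and 3.16 in total RNA. Cflar, an inhibitor of caspase-8 activation, rose by 2.24 and 2.40 in nascent and by 2.06 and 2.83 in total RNA. Birc3, a ubiquitin ligase of the receptor complex, rose by 1.65 and 1.32 in nascent and by 1.09 and 1.42 in total RNA, and its total call at 45 min was lost without any 1 of its 4 arrays (adjusted p up to 0.474). Rnf31, the catalytic subunit of the linear ubiquitin ligase complex, rose by 2.02 in nascent and 2.18 in total RNA at 270 min. Sharpin, another subunit of that complex, fell by 1.69 in nascent RNA at 45 min, and Map3k14, the kinase of the non-canonical NF-κB pathway, fell by 1.42 in nascent RNA at 270 min. The total decrease of Map3k14 (-0.73, adjusted p = 0.0444) was lost with quantile scaling, without either array at 0 min and without experiment 2 at 270 min (adjusted p up to 0.253). Nascent decreases were also called at 270 min for Tab1 (-1.29), lost without experiment 2 at 0 min (adjusted p = 0.0941), and for Fadd (-0.80), lost with quantile scaling, without experiment 2 at 0 min and without either array at 270 min (adjusted p up to 0.253).

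Regulators of Tnf mRNA decay and translation were measured for all 13 genes listed, 12 above background on all 12 arrays. In nascent RNA 3 were called higher and 2 lower at 45 min, where 3.05% and 5.88% of all symbols were, and 1 higher and 3 lower at 270 min, where 8.87% and 14.2% were. In total RNA 1 was called higher at 45 min (against 0.662% of all symbols), and 3 higher and 2 lower at 270 min (against 7.02% and 12%). Zfp36, which encodes tristetraprolin, a protein that binds AU-rich elements and promotes decay of Tnf mRNA, rose by 2.69 ± 0.28 in nascent and 2.80 ± 0.28 in total RNA at 45 min (adjusted p = 4.48e-05 and 6.73e-05). At 270 min it differed by 0.73 in nascent RNA, not called (adjusted p = 0.0773), and by 1.04 in total RNA (adjusted p = 0.0169), a call lost without experiment 1 at 0 min or experiment 2 at 270 min (0.73 to 0.82, adjusted p up to 0.176). Mapkapk2, which encodes a kinase that restrains tristetraprolin, rose by 2.15 at 45 min and 1.87 at 270 min in nascent RNA and by 1.64 at 270 min in total RNA. Zfp36l1, a relative of Zfp36, fell by 3.67 in nascent RNA at 270 min (at least 9.36-fold lower) and by 2.81 in total RNA, and Zfp36l2 fell by 1.73 and by 1.36. Zc3h12a, which encodes the endonuclease Regnase-1, rose by 1.62 in total RNA at 270 min. At 45 min in nascent RNA Zc3h12a (1.47), Zfp36l2 (-0.70) and Tia1 (-0.89), a translational repressor, were called, and each call was lost without 1 of at least 3 of its 4 arrays (adjusted p up to 0.155, 0.321 and 0.0973). Mapkapk3 was called lower in nascent RNA at 270 min (-0.92), a call lost without experiment 2 at either time (adjusted p up to 0.0767).

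The genes whose level over the 12 arrays followed Tnf most closely were searched for among 12174 genes, as the root mean square difference of log2 profiles each centred on its own mean. They were Cxcl1 (0.29), Cxcl2 (0.35), Nfkbiz (0.55), Acod1 (0.61) and Ccl2 (0.65). For Tnfsf9 the nearest profiles were those of Cxcl1 (0.86), Ccl2 (0.9), Gem (0.93), Nfkbiz (0.99) and Tnf (1.04), all farther away than the 5 nearest of Tnf. Gem had nascent changes from unstimulated cells of 4.73 at 45 min and 1.74 at 270 min, Cxcl1 of 5.51 and 4.47, and Tnfsf9 of 6.87 and 3.63. These genes were picked for their likeness, so it has no test.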

How the data were processed

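Nascent and total RNA of 6 cultures was measured on 12 arrays. The deposited values are linear intensities, 1 per probe set. Per the submitters' processing notes, the authors used RMA and Affymetrix Expression Console. The sources used here give neither software versions nor whether the fractions were normalised jointly. RMA shrinks changes of dim genes and can remove a global shift, so changes are relative to the other genes.

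The intensities were put on a log2 scale. Of 35557 probe sets, the platform annotation gave 21789 a single symbol, 1621 several symbols and 12147 none. Of 19938 symbols, 999 had several probe sets, and the one of highest mean was used, with no filter on level, so all 9 ligand genes were tested. Entrez identifiers of 21698 probe sets matched RefSeq (GRCm38.p6), changing 0 symbols.

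Tests used limma 3.58.1 in R 4.3.3, with an intensity trend and Benjamini-Hochberg adjustment. Tables and figures used Python 3.11.15, numpy 2.4.6, pandas 2.3.3 and matplotlib 3.10.9. Times were compared with a mean per group over 12 arrays (residual degrees of freedom 6, prior 7.4), and fractions on the 6 nascent minus total differences (residual degrees of freedom 3, prior 16.5). The code was tested on simulated data. The number of arrays limits the precision.

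The experiment number was taken as pairing nascent with total samples because the labels name 2 independent experiments, and replicates of a group come from separate ones. The main fits comparing times had no term for the experiment, which entered them only as the replicate block among the alternatives. Deviations from group means correlated between groups at -0.295 to 0.645 over 15 pairs of groups, and those of nascent RNA at 0 min at -0.295 to 0.025 with the others. Alternatives were quantile scaling within each fraction, a filter on dim genes (12327 left), no intensity trend, the experiment as a replicate block, unpaired contrasts, and leaving out each array or culture.

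The 9 genes, the gene lists, the patterns and the background level were chosen with earlier results of these data known. Named genes of a list were the called members of largest change, up to 4 per direction in the comparisons with unstimulated cells. A chosen list of receptors of the 9 ligands, without the decoy receptors Tnfrsf22 and Tnfrsf23, was named as well. The genes of like pattern were the 5 nearest to Tnf and to Tnfsf9. Proteins and other promoter windows were not analysed here.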

Additional observations from a re-analysis of the deposited data

Results flagged for a closer look

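The effect of LPS differed between 270 and 45 min for 5 of the 9 ligands in nascent RNA and 4 in total RNA, by the test of the difference itself (limma, all 12 arrays). Of all symbols 6.74% were called higher and 10% lower in nascent RNA, and 6.64% and 11.5% in total RNA. As the 270 min minus the 45 min effect, it was positive in nascent RNA for Tnfsf10 (5.15), Tnfsf15 (4.31) and Tnfsf8 (1.67) and negative for Tnfsf9 (-3.24) and Tnfsf14 (-0.97). In total RNA it was positive for Tnfsf15 (4.85), Tnfsf10 (4.55) and Tnfsf8 (2.15) and negative for Tnfsf9 (-1.45). The unstimulated arrays cancel in this difference. Tnfsf10 was under background at 45 min and nascent Tnfsf14 at 270 min, so those values are fitted differences, with bounds of at least 13.6-fold (nascent) and 14.6-fold (total) higher for Tnfsf10 and at least 1.39-fold lower for Tnfsf14. The call on nascent Tnfsf14 was lost without experiment 1 at 45 min (-0.62) or experiment 2 at 270 min (-0.68). Groups of 2 arrays are too small for a search for single outlying arrays.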

How the results depend on the processing

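Of 826 alternatives over the 99 results of the 9 ligands, none reversed a called direction (0 of 826). A change of sign in a value that passed in neither setting was not counted. Of the 99 results 34 were called. Leaving out an array or a culture kept the call in 98 of 118 alternatives of these and ended it in 20, and the other settings kept it in 164 of 169 and ended it in 5. Among the 65 results not called, a call was gained in 6 of 224 and 7 of 315 alternatives. Arrays left out in turn leave a group with 1 array, which is then assumed to vary like the other groups. The cause of a changed call was not tested. The counts over 826, 169 and 315 alternatives include the mean of all probe sets of a symbol as a setting. Each ligand has 1 probe set, so that setting could not change its levels, and a call kept there says nothing about robustness.

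The replicate block, with the experiment as a term, raised the count of ligands called lower from 0 to 1 in nascent RNA at 45 min (Tnfsf8) and at 270 min (Tnfsf14), and from 1 to 2 in total RNA from 45 to 270 min (Tnfsf13b), and changed no other call of a ligand. Quantile scaling (-0.49, adjusted p = 0.0497) and the filter on dim genes (adjusted p = 0.0491) also gave the count of 2 for Tnfsf13b. Quantile scaling raised the ligands called higher in nascent over total RNA at 270 min from 0 to 1. Without the pairing by culture, those called higher in nascent over total RNA at 45 min went from 6 to 3. Unpaired, the calls on Tnf (adjusted p = 0.0829), Tnfsf8 (0.0961) and Tnfsf14 (0.108) there were lost, that on Tnf also without the intensity trend (0.056) and that on Tnfsf8 also with quantile scaling (0.0837). The filter on dim genes added Tnfsf14 in nascent over total RNA at 0 min (adjusted p = 0.0473).

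When an array or culture was left out, the ligands called lower ranged from 1 to 2 in nascent RNA from 45 to 270 min, from 0 to 1 in total RNA at 270 min, and was 0 without either culture in nascent over total RNA at 0 min. Those called higher in nascent over total RNA at 45 min came to 2 without either culture. For the difference in response, 0 to 1 were called higher and 0 to 1 lower at 45 min, and 0 to 2 lower at 270 min.

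Over all symbols, the block moved the nascent decreases at 45 min from 1172 to 1838 and the total ones from 4 to 17 (2 without the trend). Unpaired contrasts moved the nascent excesses over total RNA at 270 min from 1244 to 824. They moved the calls on the response difference at 45 min from 95 higher and 113 lower to 3 and 0, and at 270 min from 24 and 144 to 2 and 47. Quantile scaling gave 42 and 15 at 45 min and 94 lower at 270 min. Leaving out single arrays moved the nascent decreases at 45 min to as few as 256.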
